A study of Mus musculus with 2 samples.

Results

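Conventional CD4 T cells were examined in single-cell RNA-seq data of MC38 tumors, a mouse colon carcinoma model, with and without the STING agonist MSA-2. A barcode was counted as a conventional CD4 T cell when it had at least 500 detected genes, at most 20% mitochondrial RNA, at least 1 unique molecular identifier (UMI, a counted RNA molecule) of Cd4 and at least 1 of the CD3 chain genes Cd3d, Cd3e and Cd3g together. It also had to have no UMI of Foxp3, Cd8a or Cd8b1, and under 0.1% of its UMIs each from the macrophage genes C1qa, C1qb and C1qc and from the myeloid signaling genes Tyrobp and Fcer1g. This gate held 70 of 28002 kept cells, with 59 in the untreated library and 11 in the MSA-2 library. The cells were thus selected on measured values, the UMIs of these genes, so the levels of these genes in the gate describe the choice and are not results.

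Each library was made from tumors of 3 pooled C57BL/6 mice that were 6 to 8 weeks old, collected on day 7. The treated mice received 3 intratumoral injections of MSA-2 at intervals of 3 days. The other mice carry the label untreated, while the series record describes injections of a saline vehicle with 10% DMSO. With 1 library per condition there is no replicate, so the difference between 2 tumors of one condition is unknown, no test was made, and every interval below covers counting error only.

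CD4 T cells recognise peptides on MHC class II molecules through the T cell receptor and the CD3 complex, with CD4 as coreceptor. They help other immune cells through cytokines and CD40 ligand, and they take on programs that are named for their cytokines and transcription factors, among them Th1, Th2, Th17 and follicular helper (Tfh) cells. Foxp3 marks the regulatory (Treg) branch, which the gate was built to leave out. STING senses cyclic dinucleotides in the cytosol and starts production of type I interferon, and cells that bind interferon switch on interferon-stimulated genes through JAK kinases and STAT transcription factors.

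The gated cells carried from 1184 to 56368 UMIs in the untreated library (median 3338) and from 2045 to 30937 in the MSA-2 library (median 5451). Over whole libraries, 14039 of 14386 and 13963 of 14617 barcodes were kept, with medians of 8775 and 9706 UMIs and totals of 198135335 and 204387165 UMIs over all barcodes. The libraries shared 53 barcode sequences, of which none lay in the gate. Scrublet called 3 of the 59 untreated cells and 0 of the 11 MSA-2 cells doublets. The evidence for CD4 itself was thin. Of the untreated cells 50 had 1 Cd4 UMI, 7 had 2 and 2 had 3, and all 11 MSA-2 cells had exactly 1. At the edge of the gate, 1171 untreated and 204 MSA-2 cells met every other condition but had no Cd4 UMI, 19 and 2 had a Foxp3 UMI, and 8 and 1 had a Cd8a or Cd8b1 UMI. A further 28 untreated and 33 MSA-2 cells failed only because they had no CD3 UMI. This was the only edge with more cells in the MSA-2 library, so the size of the share difference given below depends on the CD3 condition. The highest C1q share inside the gate was 0.0914% for untreated and 0.0978% for MSA-2 cells, and the lowest just outside was 0.106% in the untreated library. For Tyrobp and Fcer1g the highest share inside was 0.0862% and 0.0742%, and the lowest outside was 0.116% in the untreated library.

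The label was checked against a list of 10 T cell identity genes that the gate did not use, among them the receptor constant genes Trac, Trbc1 and Trbc2 and the kinase gene Lck. Most gated cells fitted it, but a deep minority did not. In 15 of 59 cells (untreated) and 3 of 11 cells (MSA-2), 10 genes of matrix-producing and structural cells (Cald1, Sparc, Wwtr1, Serpinf1, Tm4sf1, Col3a1, Serpinh1, Fstl1, Tpm1 and Gng11) made up more than 0.340% of UMIs. That limit is 1/2 of the lower of the medians in cells that had at least 8000 UMIs and no UMI of the leukocyte gene Ptprc, and it was set after the data were seen. The 10 genes were also taken from these data. Among genes found in at least 95% of such cells of both libraries, they were highest relative to shallower cells with at least 2 Ptprc UMIs. These matrix-rich cells had medians of 28097 and 20075 UMIs, against 2922 and 4461 in the other cells, and held 72.4% and 59.0% of all UMIs of the gate. They had a median of 2 identity genes in either library, and 5 of the 15 and 1 of the 3 had none. Ptprc was at 0 in 6 of 15 and 2 of 3, and the 3 doublet calls were among the 15. The depth and low Ptprc of the matrix-rich cells follow in part from how the 10 genes were chosen and are not separate evidence. The remaining 44 and 8 cells had medians of 7 and 6.5 identity genes, and 43 of 44 and 7 of 8 had at least 3. The share of matrix RNA is a range rather than a type. Of the untreated cells 3 lay within 20% of the limit, with 0.313% just below it and 0.375% just above, while the MSA-2 cells left a gap from 0.123% to 0.498%.

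The deep cells without Ptprc served as a background for the gate. The untreated library held 4508 such cells and the MSA-2 library 5764, at medians of 20226 and 20104 UMIs, and 0.599% and 0.382% of them had a Cd4 UMI, while 13.2% and 1.89% had a CD3 UMI. In the untreated library 5 of them, and in the MSA-2 library 1, passed the whole gate. T cell identity genes were thus found in nearly all of the 44 and 8 cells low in matrix RNA and in fewer of the matrix-rich cells, of which 7 of 15 and 1 of 3 had at least 3. These genes mark T cells and not conventional CD4 T cells, for which the 1 or few Cd4 UMIs are the evidence. Among the low-matrix cells, 1 untreated cell with 293 UMIs of Cst3 and 9 of Flt3 also carried dendritic cell RNA, 1 MSA-2 cell with 41 UMIs of S100a9 and 22 of S100a8 carried neutrophil RNA, and 33 of 44 and 7 of 8 had at least 2 genes of a Treg list. Values below are given over all gated cells and, in most detail, over the 44 and 8 cells, which are called the low-matrix cells.

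**Figure D1:**
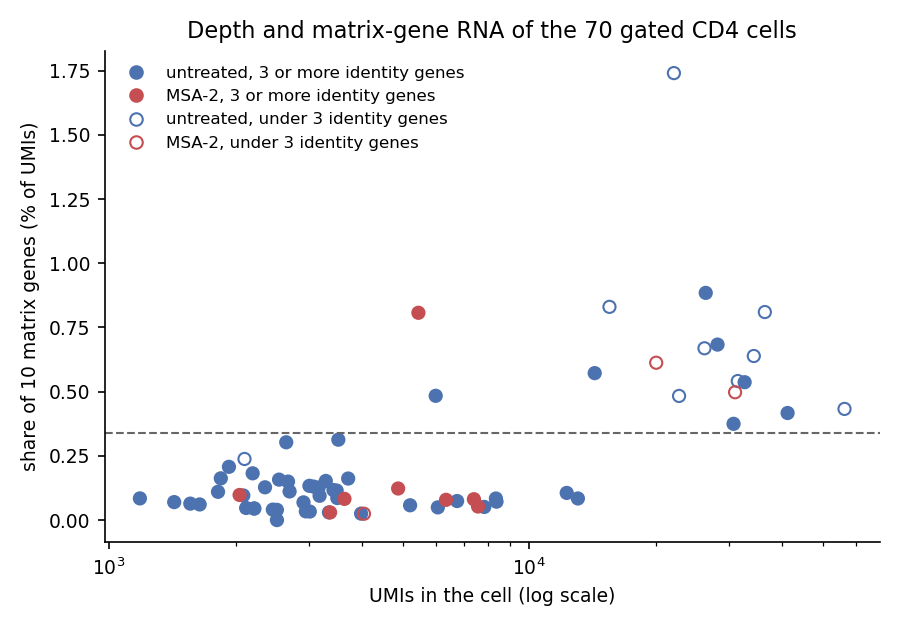
Each point is 1 gated cell, with its UMIs on a log scale on the x axis and the share of its UMIs from the 10 matrix genes, in percent, on the y axis. Colors give the library, filled points have at least 3 of the 10 T cell identity genes, and the dashed line is the limit of 0.340%, above which lie 15 untreated and 3 MSA-2 cells, most of them deep.

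Conventional CD4 T cells were a smaller share of the MSA-2 library, at 0.0788% of kept cells (exact 95% Clopper-Pearson interval 0.0393 to 0.141%, 11 of 13963), than of the untreated library, at 0.420% (0.320 to 0.542%, 59 of 14039). On the log2 scale the MSA-2 share over the untreated share was -2.42, with an exact conditional binomial interval, called the counting interval from here on, of -3.49 to -1.47. With each barcode first thinned at random to 1500 UMIs, 26 untreated cells and 1 MSA-2 cell met the gate, a log2 ratio of -4.61 (-9.97 to -2.0). Without the matrix-rich cells the shares were 0.0573% and 0.313%, a log2 ratio of -2.45 (-3.75 to -1.35). Of the cells with a Ptprc UMI, 9 of 5240 in the MSA-2 library (0.172%) and 51 of 7682 in the untreated library (0.664%) were gated cells, a log2 ratio of -1.95 (-3.16 to -0.91).

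The lower share was also seen over all cells with a CD3 UMI, and no difference in the part that the CD4 gate took of them was detectable at these counts. Cells with a CD3 UMI that passed the same myeloid limits made up 15.1% of the untreated library and 2.38% of the MSA-2 library, a log2 ratio of -2.66 (-2.83 to -2.50). Over these cells the CD4 gate took 2.78% (59 of 2120) and 3.30% (11 of 333), a log2 ratio of 0.25 with an interval of -0.83 to 1.19. A CD3 UMI alone does not make a T cell, since 582 of the 2120 and 109 of the 333 were deep cells without Ptprc. Among the CD3 cells low in matrix RNA, the CD4 gate took 3.93% (44 of 1121) and 4.85% (8 of 165), a log2 ratio of 0.30 (-0.99 to 1.41). The ratio of shares of kept cells was -2.88 (-3.19 to -2.59) for a CD8 gate (792 and 107 cells with Cd8a or Cd8b1 and no Cd4 or Foxp3) and -3.10 (-4.21 to -2.15) for a Foxp3 gate (86 and 10 cells with Foxp3 and no Cd8a or Cd8b1). Of the 3 gates together, the CD4 gate held 6.30% without and 8.59% with MSA-2, a log2 ratio of 0.45 (-0.63 to 1.39). A share of cells in a suspension also depends on the other cells captured, and the methods call the cells sorted without naming a gate. Fewer T cells and more of other cells cannot be told apart here.

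The CD4 T cells from the MSA-2 library had more interferon-stimulated RNA than those from the untreated library. The list of 42 interferon-stimulated genes holds antiviral effectors, sensors and feedback regulators. The promoters of the 3 effector genes Ifit1, Rsad2 and Ifit3 are shown because they hold the paired GAAA motif known from interferon-stimulated response elements. They were chosen for holding it before the start of the gene. They also had to be at least 2-fold higher in the MSA-2 library, over all gated cells and in the low-matrix cells. Of such genes, these had the most UMIs in the low-matrix cells. Motif and higher level were thus both conditions of the choice. Each line gives 100 bases of the RefSeq promoter (assembly GRCm38.p6), 5′ to 3′ in the direction of the gene, with matches to GAAANNGAAA in capitals. All matches shown lie on the reverse strand of the gene and so read as TTTCNNTTTC.
Ifit1: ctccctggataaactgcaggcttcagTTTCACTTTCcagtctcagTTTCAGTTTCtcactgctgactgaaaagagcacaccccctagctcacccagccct
Rsad2: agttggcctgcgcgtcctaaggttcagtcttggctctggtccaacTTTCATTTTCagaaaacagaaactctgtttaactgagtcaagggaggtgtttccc
Ifit3: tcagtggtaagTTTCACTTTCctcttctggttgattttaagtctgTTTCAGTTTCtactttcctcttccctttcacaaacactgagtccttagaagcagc

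The stretch of Ifit1 is at chr19:34640759-34640858 on the plus strand and spans positions -130 to -31 from the start of the gene. That of Rsad2 is at chr12:26456518-26456617 on the minus strand, positions -165 to -66, and that of Ifit3 at chr19:34583362-34583461 on the plus strand, positions -167 to -68. On either strand of the promoter window, from 250 bases before to 50 bases after the start, the motif occurred in 1131 of 32851 mouse promoters (3.44%). It occurred in 17 of the 33 interferon-stimulated list genes that had a promoter entry (51.5%). The share was 71.4% (10 of 14) for the list of interferon-gamma and guanylate-binding protein genes and 26.7% (4 of 15) for the MHC class I list. A match describes these letters in this window and is not a site or a cause.

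Over all gated cells the 42 genes together made up 4471 CPM (the UMIs of the genes scaled so that all sets of cells have the same total) in the untreated and 10458 CPM in the MSA-2 library, a log2 ratio of 1.23 (counting interval 1.12 to 1.33). In the low-matrix cells they made up 6300.1 and 15769.9 CPM, a log2 ratio of 1.32 (1.18 to 1.47). Cell by cell, the list took from 0.120 to 2.14% of the UMIs in the 44 untreated low-matrix cells (median 0.672%) and from 0.880 to 3.57% in the 8 MSA-2 cells (median 1.48%). The MSA-2 cells held 0.880, 0.982, 1.19, 1.36, 1.59, 1.82, 2.79 and 3.57%. All 8 lay above the untreated median and 2 above the highest untreated cell, and 27 of the 44 untreated cells lay below the lowest MSA-2 cell, so the libraries overlapped. In the matrix-rich cells the medians were 0.424 and 0.643%. The deep cells without Ptprc were also higher in the MSA-2 library, at 7888 against 3369 CPM, so the higher list level was not particular to T cells.

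**Figure D2:**
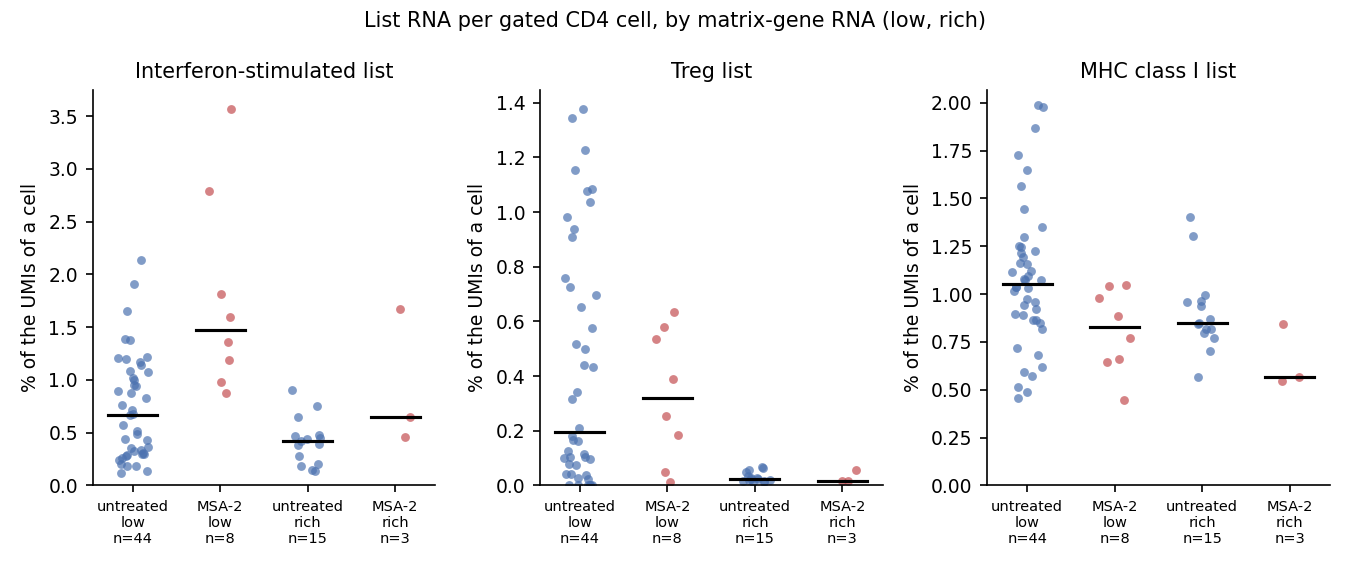
Share of UMIs (percent, y axis) of 3 gene lists in each gated cell, by library and by matrix RNA (low or rich), with the median as a bar. The 8 low-matrix MSA-2 cells sit between 0.880 and 3.57% for the interferon-stimulated list, above the untreated median of 0.672%, while for the MHC class I list they lie below the untreated median of 1.05%.

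For single genes, those with at least 10 UMIs over both libraries together were considered, which favors genes that are high in the larger, untreated set. Over all gated cells 38 of the 42 interferon-stimulated genes had that many, and 25 of them were at least 2-fold higher in the MSA-2 library and 0 were at least 2-fold lower. The background over all 7540 genes with that many UMIs was 11.1% higher and 19.4% lower by that much. After adding 1 CPM to each level, the list had a median log2 ratio of 1.33, beside -0.11 over all genes. In the low-matrix cells 31 of the 42 had 10 UMIs, 17 were at least 2-fold higher and 0 lower, against 10.3% and 25.3% of 3618 genes, with medians of 1.12 and -0.14. With edgeR's TMM factors in place of total UMIs, all log2 ratios moved by -0.18 and, in the low-matrix cells, by -0.25. Genes that were higher were then 25.0% rather than 36.4% of all genes past 2-fold, and 17.5% rather than 29.0% in the low-matrix cells.

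Ifi27l2a, a small interferon-induced mitochondrial protein, gave the most UMIs of the list in the low-matrix cells, with 196 from the untreated library and 164 from the MSA-2 library, or 1209 and 4178 CPM. It was detected in 36 of 44 and 8 of 8 cells, and 1 MSA-2 cell held 50 of its UMIs. The log2 ratio was 1.79 (1.48 to 2.10). Ifit1, which binds viral RNA lacking host cap marks, had 81 and 66 UMIs in 21 of 44 and 8 of 8 cells, a log2 ratio of 1.75 (1.26 to 2.24). Rsad2 (viperin), which makes a chain-terminating nucleotide, had 35 and 31 UMIs in 16 and 7 cells, a ratio of 1.87 (1.12 to 2.61). Ifit3, a partner of Ifit1, had 25 and 24 UMIs in 11 and 7 cells, a ratio of 1.99 (1.12 to 2.86). Each was found in a larger share of the MSA-2 cells, whose median depth was higher. With every cell thinned to 1500 UMIs, Ifi27l2a was found in 32 of 42 untreated and 7 of 8 MSA-2 cells, Ifit1 in 16 and 8, Rsad2 in 8 and 6 and Ifit3 in 8 and 4.

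Among the regulators and sensors, Usp18, which removes ISG15 from proteins and damps the type I interferon receptor, had 6 and 11 UMIs and a log2 ratio of 2.92 (1.36 to 4.64). Oasl1, a member of the oligoadenylate synthetase-like family, had 16 and 26 UMIs, of which 12 in 1 MSA-2 cell, and a ratio of 2.75 (1.79 to 3.74). The cytosolic RNA sensors Ddx58 (RIG-I) and Ifih1 (MDA5) had ratios of 2.63 (0.98 to 4.40) and 1.36 (0.69 to 2.02). Herc6, the mouse ligase that attaches ISG15, and Trim30a, a tripartite-motif protein, had ratios of 2.25 (1.32 to 3.19) and 2.33 (1.22 to 3.46). Isg15 itself, the ubiquitin-like modifier, had 79 and 28 UMIs and a ratio of 0.55 whose interval of -0.13 to 1.19 includes 0.

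Other interferon-stimulated genes showed no higher level in the low-matrix cells. Bst2 (tetherin, which holds budding virus at the membrane) had a log2 ratio of -0.14 (-1.23 to 0.82), Ly6a (the surface protein Sca-1) one of -0.24 (-0.90 to 0.36) and Zbp1 (a sensor of Z-form nucleic acid) one of -0.54 (-2.53 to 1.0). For Ifi203, a member of the HIN-200 family, the value depended on the cells summed. It was 1.66 (0.72 to 2.54) over all gated cells and -0.16 (-1.91 to 1.27) in the low-matrix cells.

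**Figure D3:**
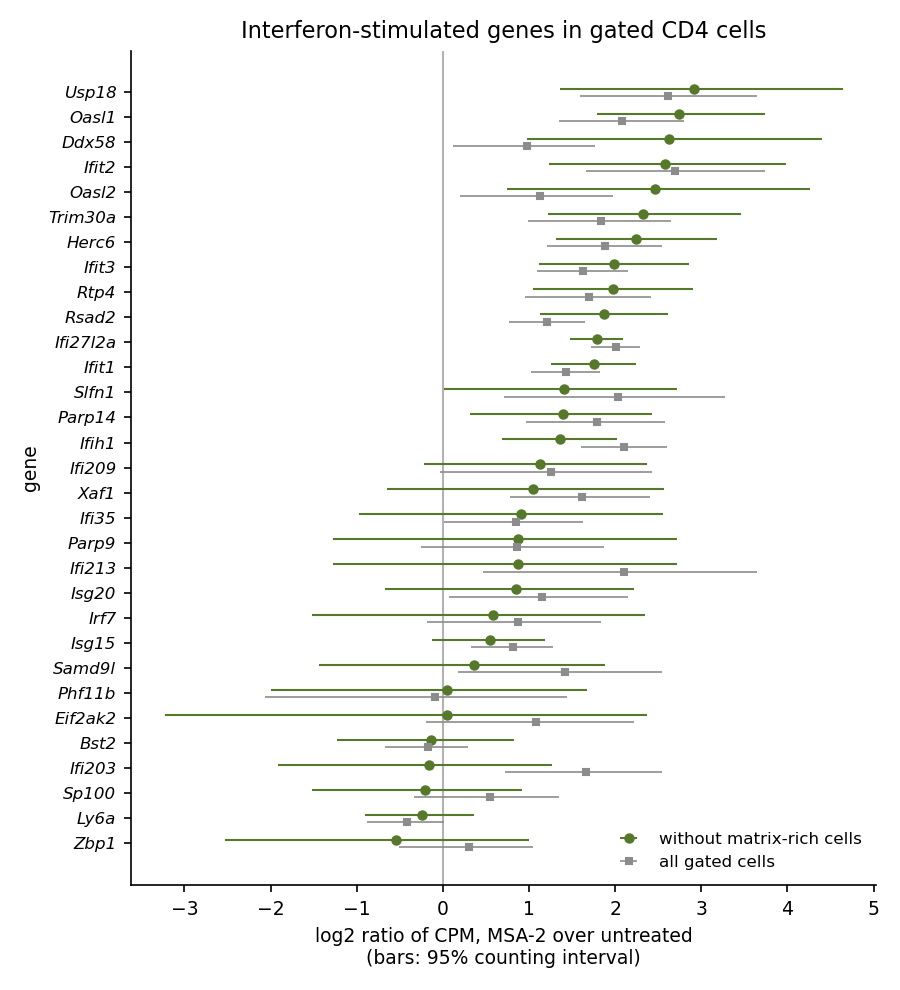
Log2 ratio of CPM, MSA-2 over untreated, on the x axis for the interferon-stimulated genes with at least 10 UMIs in the low-matrix cells, with 95% counting intervals as bars. Green circles are the low-matrix cells and grey squares all gated cells, and the green values run from -0.54 for Zbp1 to 2.92 for Usp18.

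The genes linked more closely to interferon-gamma were mixed. In the low-matrix cells 14 of the 21 genes of this list had 10 UMIs, of which 5 were at least 2-fold higher and 3 at least 2-fold lower, beside 10.3% and 25.3% of all genes, with a median log2 ratio of -0.08. Their sum was 1481 and 2573 CPM, a log2 ratio of 0.80 (0.45 to 1.14), and over all gated cells the ratio was 0.46 (0.21 to 0.70). Gbp5, a guanylate-binding protein that takes part in inflammasome assembly, carried much of that sum, with 15 UMIs in 7 untreated and 35 UMIs in 6 MSA-2 cells and a ratio of 3.27 (2.36 to 4.25). In the deep cells without Ptprc it was 14.1 and 96.7 CPM. Gbp2 had a ratio of 1.76 (0.31 to 3.17) in the low-matrix cells. The transcription factor gene Irf1 had 32 and 2 UMIs, a ratio of -1.95 (-5.06 to 0.02), and Irf8 had 18 UMIs in the untreated cells, 10 of them in 1 cell, and 0 in the MSA-2 cells.

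MHC class I presentation genes, which also respond to interferon, did not share the pattern of the interferon-stimulated list. Of 16 genes in the low-matrix cells, 1 was at least 2-fold higher and 3 at least 2-fold lower, which is near the 10.3% and 25.3% over all genes, and the median log2 ratio was -0.52. Their sum was 10490 CPM in the untreated and 7617 CPM in the MSA-2 library, a ratio of -0.46 (-0.64 to -0.28), beside -0.54 (-0.66 to -0.42) over all gated cells. The share of UMIs per cell ran from 0.457 to 1.99% (median 1.05%) and from 0.447 to 1.05% (median 0.827%), and 0 of the 8 MSA-2 cells lay above the untreated median. The class I heavy chain gene H2-D1 had a ratio of -1.0 (-1.65 to -0.41), while H2-K1 at -0.28 (-0.62 to 0.05), the light chain gene B2m at -0.35 (-0.77 to 0.05) and the peptide transporter gene Tap1 at 0.09 (-1.24 to 1.25) had intervals that include 0. The list was also lower in the deep cells without Ptprc, at 6873 against 8512 CPM.

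For the receptors and kinases that carry interferon signals, the sum had a log2 ratio of -0.34 (-0.66 to -0.04) in the low-matrix cells and 0.22 (-0.02 to 0.45) over all gated cells. Ifngr1, a chain of the interferon-gamma receptor, was lower, with 131 UMIs in 33 of 44 cells and 8 UMIs in 4 of 8 cells and a ratio of -1.99 (-3.23 to -0.97). Ifnar1, a chain of the type I interferon receptor, had a ratio of 0.15 (-1.30 to 1.40). Of the STING pathway list, 9 genes were in the files and 2 reached 10 UMIs. STING itself, listed as Tmem173, had 6 and 0 UMIs in the low-matrix cells, which is too few to compare.

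Genes of T cell identity and receptor signaling were present in both libraries at levels far above the deep cells without Ptprc. The 10 identity genes summed to 4486 and 2955 CPM in the low-matrix cells, a log2 ratio of -0.60 (-0.90 to -0.32), with 0 genes at least 2-fold higher and 2 at least 2-fold lower, a count near the 25.3% of all low-matrix genes that were lower by that much (10.3% were higher). In the deep cells they summed to 18.3 and 3.89 CPM. Over all gated cells the ratio was -0.03 (-0.31 to 0.24). Trac, the constant part of the receptor alpha chain, had 104 and 14 UMIs, a ratio of -0.85 (-1.77 to -0.04), while Trbc2, of the beta chain, had 132 and 29, a ratio of -0.14 (-0.77 to 0.45). For the 20 receptor signaling genes the summed ratio was -0.17 (-0.39 to 0.05) in the low-matrix cells and 0.40 (0.19 to 0.60) over all gated cells. Cd247, the zeta chain that passes the receptor signal on, had 25 and 14 UMIs, a ratio of 1.21 (0.15 to 2.21), with 8 of the 14 in 1 cell.

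Genes of naive and central memory T cells were lower in the MSA-2 library. Of 11 genes 6 had 10 UMIs in the low-matrix cells, of which 0 were at least 2-fold higher and 5 at least 2-fold lower, beside 10.3% and 25.3% of all genes, with a median log2 ratio of -1.25. Over all gated cells 1 of 8 genes was higher and 2 were lower by that much, near the 11.1% and 19.4% of all genes there. The sum in the low-matrix cells was 1962 and 1019 CPM, a ratio of -0.95 (-1.46 to -0.47), beside -0.70 (-1.06 to -0.35) over all gated cells, and 1 of 8 MSA-2 cells lay above the untreated median share. Klf2, a transcription factor of resting and recirculating T cells, had 87 UMIs in 29 of 44 cells and 8 UMIs in 5 of 8, a ratio of -1.40 (-2.65 to -0.36). Satb1, a chromatin organiser of T cells, had a ratio of -1.11 (-2.11 to -0.25). Ccr7, the receptor that brings T cells into lymph nodes, had 30 and 2 UMIs, a ratio of -1.86 (-4.97 to 0.12), and Il7r, which passes the survival signal of IL-7, had one of 0.41 (-0.78 to 1.48). The list was also lower in the deep cells without Ptprc, at 889 against 1248 CPM, so its lower level was not particular to T cells. Klf2 is abundant in those deep cells, where it was 1141 and 756 CPM. Cells with at least 2 of the list genes after each cell was thinned at random to 1500 UMIs were 24 of 42 in the untreated library (57.1%) and 2 of 8 under MSA-2 (25.0%), and 9.01 and 9.96% of the deep cells. The 2 untreated cells under 1500 UMIs were left out of this and all other thinned counts.

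The genes that name the helper programs were sparse, and the sums of the lists turned or shrank with the cells summed. The Th1 list summed to 4412 and 3999.8 CPM in the low-matrix cells, a log2 ratio of -0.14 (-0.40 to 0.11), with 1 gene at least 2-fold higher and 5 at least 2-fold lower of 12 that had 10 UMIs, beside 10.3% and 25.3% of all low-matrix genes. The sum over all gated cells had a ratio of 0.26 (0.02 to 0.49), of the opposite sign, while the median over genes was -0.33 there and -0.38 in the low-matrix cells. Stat4, which carries the IL-12 signal, had 102 and 39 UMIs, a ratio of 0.66 (0.09 to 1.20), with 24 of the 39 in 1 cell. Bhlhe40, a transcription factor that sustains Th1 cytokines, had 101 UMIs in 30 of 44 cells and 6 in 5 of 8, a ratio of -2.03 (-3.51 to -0.86). Tbx21, which encodes the Th1 factor T-bet, had 8 and 1 UMIs. The chemokine gene Ccl5 turned with the cells summed, at 0.56 (0.16 to 0.94) over all gated cells and -0.16 (-0.62 to 0.27) in the low-matrix cells. The MSA-2 cell with neutrophil RNA held 20 Ccl5 UMIs. Without it and the untreated cell with dendritic cell RNA, the low-matrix ratio was -0.74 (-1.32 to -0.21).

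The Th2 cytokine genes Il4, Il5 and Il13 and the Th17 cytokine gene Il17a had no UMI in the low-matrix cells. Gata3, the Th2 factor that other T cells also express, had 21 and 3 UMIs. Rora, which is known from Th17 cells and innate lymphoid cells and also from activated T cells and Treg cells, made up most of the Th17 list, with 240 UMIs in 40 of 44 and 27 UMIs in 6 of 8 cells, a log2 ratio of -1.11 (-1.74 to -0.53). The Tfh list summed to 1290 and 1350 CPM, a ratio of 0.07 (-0.40 to 0.51), and over all gated cells the ratio was 0.53 (0.11 to 0.93). Within it Bcl6, the factor that defines Tfh cells, had 20 and 2 UMIs, of which 13 in 1 untreated cell, and the costimulatory receptor gene Icos had 89 and 14, a ratio of -0.62 (-1.55 to 0.20).

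A gate with no Foxp3 UMI did not remove cells with other genes of the Treg program. At 1500 UMIs per cell, 26 of 42 untreated (61.9%) and 5 of 8 MSA-2 low-matrix cells (62.5%) had at least 2 of 10 Treg list genes, against 0.799 and 1.11% of the deep cells. Without thinning these were 33 of 44 and 7 of 8. Several of these genes are also expressed by activated conventional T cells, so the count does not make the cells Treg cells. At a median depth of 2922 and 4461 UMIs a Foxp3 transcript can also be missed. In the Foxp3 gate the list took a median of 0.975% of UMIs per low-matrix cell without and 0.561% with MSA-2. The CD4 cells had 0.195% (0 to 1.38%) and 0.321% (0.0135 to 0.636%), and the CD8 cells 0.188 and 0.178%.

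The summed Treg list was 4825 CPM in the untreated and 2650 CPM in the MSA-2 library, a log2 ratio of -0.86 (-1.17 to -0.57) beside -0.37 (-0.66 to -0.09) over all gated cells, with 1 gene at least 2-fold higher and 6 at least 2-fold lower of 10, beside 10.3% and 25.3% of all genes. Over all gated cells 1 of the 10 genes was higher and 3 were lower by that much, beside 11.1% and 19.4% of all genes. The per-cell median lay the other way from the sum, and the untreated cells included single cells of higher share than any MSA-2 cell. Ctla4, an inhibitor that competes for costimulatory ligands, had 115 UMIs in 22 of 44 cells and 8 UMIs in 4 of 8, a ratio of -1.80 (-3.05 to -0.77). Tnfrsf4 (OX40, a costimulatory receptor) had 180 and 16, a ratio of -1.45 (-2.28 to -0.71), and Ikzf2 (the Treg factor Helios) 155 and 18, a ratio of -1.06 (-1.85 to -0.35). Tnfrsf18 (GITR) had 92 and 27, a ratio of 0.28 (-0.40 to 0.91). In the thinned untreated cells, at least 2 inhibitory receptor genes were found in 18 of the 26 cells with Treg genes and 2 of the 16 without, and at least 2 Tfh genes in 15 and 3. Ctla4 stands on both the Treg and the inhibitory list, and Pdcd1 on both the inhibitory and the Tfh list, so these counts are not independent of each other. Naive genes were found in 13 of 26 and 11 of 16.

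Without the cells that had 2 or more Treg list genes, 11 untreated cells and 1 MSA-2 cell remained of the low-matrix cells. Their interferon-stimulated lists summed to 5278 and 8796 CPM, against 6511 and 17388 CPM in the 33 and 7 cells with Treg genes. With 1 cell on the MSA-2 side this is a value of that cell.

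As a list, activation genes were somewhat lower in the low-matrix cells, while single members differed in direction. The 18 genes for activation and costimulation had a summed log2 ratio of -0.35 (-0.59 to -0.11) in the low-matrix cells and -0.03 (-0.22 to 0.16) over all gated cells. Of 15 that had 10 UMIs in the low-matrix cells, 1 was at least 2-fold higher and 3 lower, beside 10.3% and 25.3% of all genes. Outside the list, Tnfsf8, which encodes the CD30 ligand of activated T cells and was named by its rank among all genes, had 22 UMIs in 9 of 44 and 41 UMIs in 7 of 8 cells, a ratio of 2.94 (2.16 to 3.76). Its level was 1.21 and 3.28 CPM in the deep cells without Ptprc. Cd44, a receptor for hyaluronan that antigen-experienced T cells keep, had a ratio of 0.83 (0.25 to 1.40) and Cd69, an early activation marker, one of 0.19 (-0.65 to 0.96). On the inhibitory receptor list, Pdcd1 (PD-1) had 13 UMIs in 11 cells and 10 in 4, a ratio of 1.67 (0.32 to 2.97), while Tigit had 13 and 1 UMIs and Lag3 5 and 2. Tox, a transcription factor of chronically stimulated T cells that stands on the same list, had 67 and 33 UMIs, a ratio of 1.02 (0.38 to 1.65). The inhibitory list summed to a ratio of -0.01 (-0.43 to 0.40) in the low-matrix cells and 0.54 (0.13 to 0.93) over all gated cells, with medians over genes of -0.53 and 0.42. Of 7 inhibitory list genes that had 10 UMIs in the low-matrix cells, 2 were at least 2-fold higher and 3 lower, beside 10.3% and 25.3% of all genes. Over all gated cells 3 of 9 were higher and 2 lower, beside 11.1% and 19.4% of all genes.

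Helper cytokine genes were detected in few cells. Of 15 genes 6 had 10 UMIs in the low-matrix cells, with 2 at least 2-fold higher and 2 lower, beside 10.3% and 25.3% of all genes, and a summed log2 ratio of 0.37 (-0.08 to 0.79). Of 6 genes over all gated cells 4 were higher and 1 lower, beside 11.1% and 19.4% of all genes, and the summed ratio was 0.90 (0.50 to 1.29). Ifng, which encodes interferon-gamma, had 18 UMIs in 11 of 44 untreated cells, with at most 3 in any cell. In the MSA-2 library it had 23 UMIs in 3 of 8 cells, with 12 in 1 of them. Its ratio of 2.40 (1.45 to 3.38) thus rests on few cells, and the interval takes no account of the spread between cells. Il10, an anti-inflammatory cytokine, had 4 UMIs in 3 cells and 9 in 2, 6 of them in 1 cell. Tnf had 29 and 9 UMIs, a ratio of 0.36 (-0.91 to 1.48), Cd40lg, the CD40 ligand through which helper cells license B cells and dendritic cells, 8 and 3, and Il2 0 and 0. After thinning, 13 of 42 and 5 of 8 cells had at least 2 genes of the list.

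Genes of cytotoxicity summed to a lower level in the MSA-2 library, and the size of the difference depended on 1 untreated cell. The 12 genes summed to 158 UMIs (975 CPM) in untreated low-matrix cells and 11 UMIs (280 CPM) in those of the MSA-2 library, a log2 ratio of -1.80 (-2.83 to -0.92), beside -1.17 (-2.11 to -0.36) over all gated cells. One untreated cell held 56 of the 158 UMIs, among them 55 of the 56 UMIs of Gzmc, a granzyme of strongly stimulated killer cells. Without that cell the sums were 641 and 280 CPM, a ratio of -1.19 (-2.24 to -0.29). Only 5 of the 12 genes had 10 UMIs, of which 0 were at least 2-fold higher and 4 lower, beside 10.3% and 25.3% of all genes. Their median log2 ratio was -3.71, or -0.28 with the 2 genes at 0 in one library set to the bound that a count of 0 allows (3 UMIs). Nkg7, a protein of cytotoxic granules, had 39 UMIs in 17 cells and 3 in 1 cell, a ratio of -1.65 (-3.99 to -0.001). Gzmb had 19 and 5 UMIs and Prf1, which encodes the pore-forming perforin, 0 and 0. At least 2 genes of the list were found in 12 of 42 untreated and 0 of 8 MSA-2 cells after thinning.

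Receptors for cytokines and chemokines leaned the same way. The cytokine receptor list had a summed log2 ratio of -0.71 (-1.15 to -0.29) and the chemokine receptor and homing list one of -0.53 (-1.05 to -0.05) in the low-matrix cells. In each, 0 genes were at least 2-fold higher and 6 at least 2-fold lower of 11 that had 10 UMIs, beside 10.3% and 25.3% of all genes. Over all gated cells the ratios were -0.29 (-0.67 to 0.07) and 0.07 (-0.33 to 0.45), both with intervals that include 0. By gene, the cytokine receptor list had 0 at least 2-fold higher and 2 lower of 15 over all gated cells. The homing list had 2 and 5 of 12, beside 11.1% and 19.4% of all genes. The homing list's median log2 ratio over genes was -0.51 over all gated cells and -1.40 in the low-matrix cells, or 0.27 and -0.28 with genes at 0 in one library set to their bound. Cxcr3, which guides T cells to interferon-induced chemokines, had 15 and 6 UMIs, a ratio of 0.72 (-0.93 to 2.17).

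Among genes of cell death and survival, the sum was lower in the MSA-2 library, at 2650 against 4387 CPM in the low-matrix cells, a log2 ratio of -0.73 (-1.04 to -0.43) beside -0.30 (-0.54 to -0.07) over all gated cells. Of 17 genes that had 10 UMIs, 0 were at least 2-fold higher and 6 at least 2-fold lower, which is near the 10.3% and 25.3% over all genes. Both sides of the pathway were among them. Bcl2a1b, a survival protein, had a ratio of -1.30 (-2.02 to -0.65) and Pmaip1 (Noxa), which promotes death, one of -1.91 (-3.83 to -0.48), although 30 of its 62 untreated UMIs came from 1 cell. Bax, which opens the mitochondrial membrane, had one of -1.28 (-3.22 to 0.19), and the survival genes Bcl2 and Mcl1 had ratios of 0.98 (-0.28 to 2.13) and -0.50 (-1.48 to 0.36).

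For the remaining programs the sums over all low-matrix cells differed little or had intervals that include 0. Over all gated cells the glycolysis and hypoxia genes and the NF-kB and immediate-early genes were lower. In the low-matrix cells the summed log2 ratio was -0.22 (-0.37 to -0.07) for the NF-kB and immediate-early genes, 0.23 (-0.19 to 0.64) for the cell cycle genes and 0.03 (-0.17 to 0.23) for glycolysis and hypoxia. Without the 2 cells that carried dendritic cell or neutrophil RNA, the NF-kB and immediate-early ratio was -0.41 (-0.59 to -0.24). For the tryptophan and aryl hydrocarbon receptor genes it was 0.42 (-0.07 to 0.90), with Ahr itself at 16 and 4 UMIs. The glycolysis and hypoxia list over all gated cells summed to 8228 and 6300 CPM, a ratio of -0.39 (-0.51 to -0.26), and the NF-kB list had a ratio of -0.28 (-0.38 to -0.18). The others had ratios of -0.11 (cell cycle) and 0.03 (tryptophan). With TMM factors the low-matrix values of the cell cycle, glycolysis and Tfh lists and the all-cell values of the tryptophan and homing lists lie below 0.

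RNA of other cell types differed between the libraries and touched the extremes of the gene list. Markers of gamma-delta T, NK and NKT cells and of B and plasma cells had no UMI in the low-matrix cells of either library, and the epithelial tumor markers had 1 and 0. The 7 neutrophil markers had 0 UMIs in the 44 untreated low-matrix cells, while the 8 MSA-2 cells had 85, of which 72 in 1 cell. In the deep cells without Ptprc they were at 4.19 and 514 CPM. The 8 macrophage markers were at 1536 and 688 CPM, and at 957 and 492 CPM in the deep cells. The 9 dendritic cell markers were at 2851 and 127 CPM, with 355 of the 462 untreated UMIs in 1 cell, and at 485 and 26.7 CPM in the deep cells. How much of these differences is stray RNA from the suspension was not tested.

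Ranked by log2 ratio with 1 CPM added, among 1089 genes with at least 30 UMIs that were detected in enough low-matrix cells, the highest were S100a9, Slpi, Cxcl2, Gbp5, Tnfsf8, Bbx, Oasl1, Pias2, Map3k8 and Trim30a. The first 3 are abundant in neutrophils and other myeloid cells. One MSA-2 cell held 41 of the 49 UMIs of S100a9, 59 of the 64 of Slpi and 166 of the 176 of Cxcl2. Without it, and without the untreated cell rich in dendritic markers, Cxcl2 had 7 and 10 UMIs, a ratio of 2.60 (1.05 to 4.23), and S100a9 0 and 8. In the deep cells S100a9 was at 0.839 and 236 CPM. Without those cells Gbp5 had a ratio of 4.04 (2.96 to 5.28), Tnfsf8 one of 2.77 (1.87 to 3.70) and the interferon-stimulated list one of 1.31 (1.16 to 1.46). Map3k8, a kinase of inflammatory signaling, had 15 UMIs in 7 cells and 20 in 6, of which 13 in 1 cell.

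The lowest were H2-Eb1, H2-Aa, Ppm1l, H2-Ab1, Apoe, Fosb, Cd74, Snx9, Tpp2 and Cst3. Of these H2-Eb1, H2-Aa, H2-Ab1 and Cd74 are MHC class II genes, which mouse T cells hardly express, Cst3 is high in dendritic cells and Apoe in macrophages. One untreated cell held 105 of 127 UMIs of H2-Eb1, 56 of 72 of H2-Aa and 293 of 326 of Cst3, as well as 9 of Flt3, the growth factor receptor of dendritic cells, and Scrublet did not call it a doublet. Without it Cst3 had 33 and 7 UMIs, a ratio of -0.16 (-1.58 to 1.05), and Cd74 52 and 4, a ratio of -1.62 (-3.55 to -0.18). H2-Aa and Cd74 were also lower in the deep cells, from 89.1 to 3.79 and from 174 to 11.1 CPM. Fosb, an immediate-early transcription factor, had 42 and 1 UMIs, a ratio of -3.35 (-8.68 to -0.79).

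Over all gated cells, where 3331 genes met the same conditions, Ifit2, Slamf1, Usp18 and Dnajb4 joined the highest 10, and the lowest 10 were led by H2-Eb1, H2-Aa and Hes1. The other 7 were Scd2, Pcolce, Apod, Bnip3, Eri3, Ltbp1 and Pgm1. All 10 had 0 UMIs in the MSA-2 cells, and apart from H2-Eb1 and H2-Aa each had at most 8 UMIs in the 44 untreated low-matrix cells. Slamf1, a receptor of activated T cells, had 16 and 17 UMIs in the low-matrix cells, a ratio of 2.13 (1.06 to 3.21).

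The CD8 and Foxp3 gates allow a comparison within the same libraries, again without the matrix-rich cells (665 and 91 CD8 cells, 74 and 10 Foxp3 cells). The interferon-stimulated list was higher in the MSA-2 library in all 3 gates, with log2 ratios of 1.32 in CD4, 1.77 in CD8 and 1.08 in Foxp3 cells. The difference of ratios was -0.45 (-0.60 to -0.30) between CD4 and CD8 and 0.24 (0.06 to 0.42) between CD4 and Foxp3 cells. The untreated CD4 cells already had more of this RNA than the CD8 cells, with per-cell medians of 0.672 and 0.306%, while the MSA-2 medians were 1.48 and 1.40%. Foxp3 cells had medians of 0.621 and 2.09%. In the Foxp3 gate, 1 of the 10 MSA-2 cells held 28589 of 85958 UMIs, and without it the ratio was 1.39 (1.28 to 1.5). The order of CD4 and Foxp3 cells thus turned with that cell, and also with the measure, since the list's median log2 ratio over genes was 1.12 in CD4, 1.34 in CD8 and 1.49 in Foxp3 cells. The summed interferon-gamma and guanylate-binding protein list had its highest ratio in the CD4 cells, with differences of 0.45 (0.11 to 0.80) from CD8 and 0.67 (0.26 to 1.09) from Foxp3 cells, whose ratio was 0.13 and, without that cell, 0.38, but Gbp5 gave 35 of its 101 MSA-2 UMIs there. Its median over genes was lowest in the CD4 cells, at -0.08 against 0.51 in CD8 and 0.13 in Foxp3 cells. Gbp5 alone was higher in all 3 gates, at 3.27 in CD4, 4.22 (3.77 to 4.71) in CD8 and 1.26 (0.24 to 2.22) in Foxp3 cells.

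For other lists the gates also differed. The summed Th1 list had a ratio of 0.46 in CD8 cells against -0.14 in CD4 cells, a difference of -0.60 (-0.86 to -0.35), although its median over genes was lower in CD8 cells, at -0.64 against -0.38. The summed helper cytokine list had 1.25 against 0.37, a difference of -0.88 (-1.30 to -0.45). The cell death and survival list was 0.02 in CD8 and -0.73 in CD4 cells, a difference of -0.75 (-1.05 to -0.44). In Foxp3 cells these lists were at -1.50 (Th1), -1.52 (helper cytokines) and -0.91 (cell death and survival), or -1.01, -1.18 and -0.65 without the deepest MSA-2 cell, and the CD4 cells differed from them by 1.36 (0.94 to 1.77), 1.89 (1.23 to 2.55) and 0.19 (-0.20 to 0.58). Naive genes were lower in CD4 and CD8 cells, at -0.95 and -1.36, and the difference of 0.41 (-0.09 to 0.92) was within counting error. In Foxp3 cells they were at -0.56, and the CD4 cells differed from them by -0.39 (-1.0 to 0.22). The summed Treg list was -0.86 in CD4, -0.42 in CD8 and -1.91 in Foxp3 cells, and the identity list -0.60, -0.81 and -1.48. Without the deepest MSA-2 cell the Foxp3 values were -1.43 and -0.95. The per-cell medians of the Treg list, given above, were lower with MSA-2 in Foxp3 and CD8 cells and higher in CD4 cells. These differences compare these libraries, and their intervals leave out the spread between tumors and between cells.

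**Figure D4:**
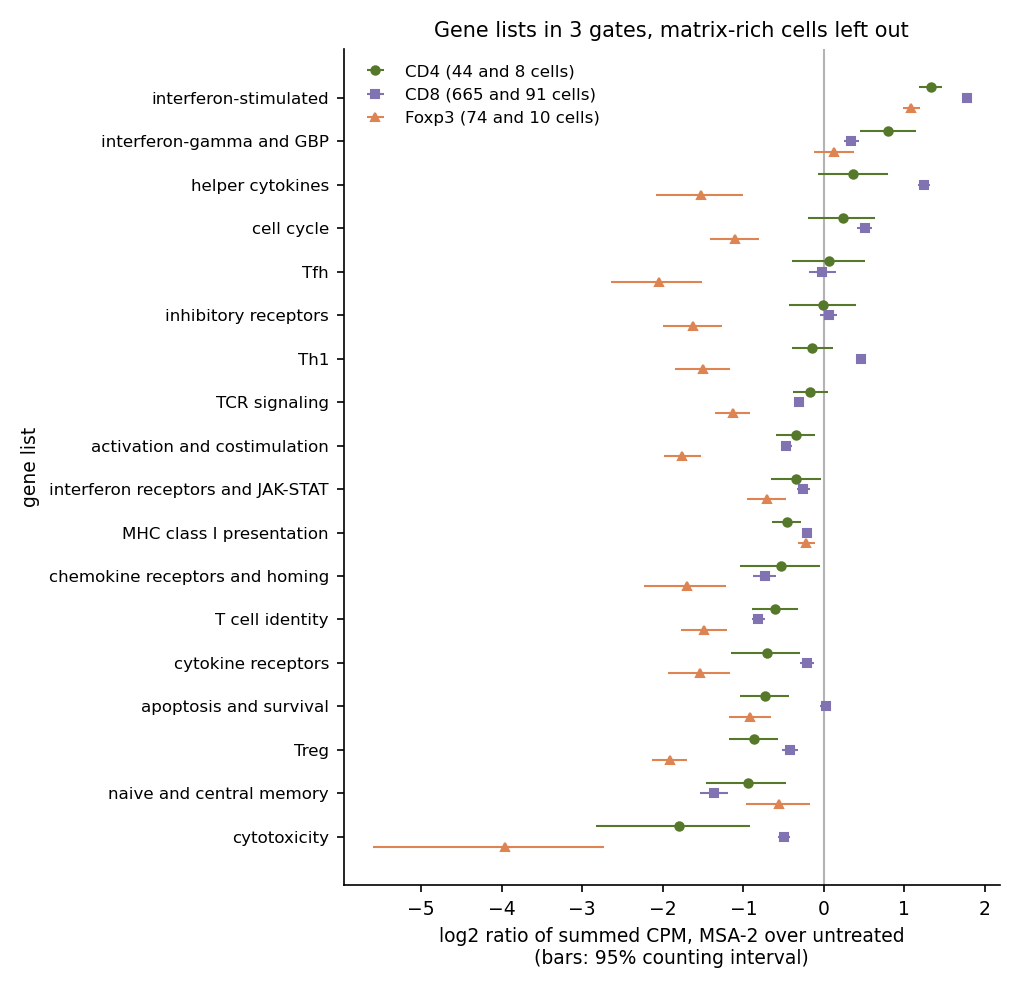
Log2 ratio of summed CPM, MSA-2 over untreated, on the x axis for 18 gene lists in the low-matrix cells of the CD4, CD8 and Foxp3 gates, with 95% counting intervals as bars. The interferon-stimulated list is at the top with ratios of 1.32, 1.77 and 1.08, and the CD4 values lie between -1.80 for the cytotoxicity list and that value.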

How the data were processed

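The authors deposited UMI counts per gene and barcode (32285 features, not normalized) of 2 10x 3′ libraries, 1 per condition, made with Cell Ranger (7.0.1 in the file headers, 7.0.0 in the submitters' processing notes, which also name Seurat 4.3.0 and mm10). Cells were gated on raw counts. UMIs were summed over gated cells and scaled to CPM, and log2 ratios, exact conditional binomial intervals and Clopper-Pearson intervals at 95% came from scipy 1.17.1, numpy 2.4.6 and pandas 2.3.3 under Python 3.11.15. Differences between gates took intervals from the Poisson variance of the 4 sums. List medians used 1 CPM added and genes with at least 10 UMIs. Doublets were called but not removed (705 and 570 calls by Scrublet of scanpy 1.11.5, set to expect 0.8% for each 1000 barcodes), TMM factors in edgeR 4.0.16 under R 4.3.3 and figures in matplotlib 3.10.9. The ratio and share code was first tested on simulated data.

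All genes of the lists could be named, and besides them the 10 highest and 10 lowest by log2 ratio among genes with at least 30 UMIs detected in at least 10% and at least 5 cells of the higher library, leaving out gate, mt- and immunoglobulin genes. The members, lists and settings were chosen with earlier results of these data known. The matrix genes were taken from these data, and the matrix-rich limit and the 2 single cells left out were chosen after these data were seen. Keratin markers, planned as the background, were near 0, and cells with at least 8000 UMIs and no Ptprc took their place. Of the interferon-gamma list Iigp3 and of the STING list Sting1 and Mb21d1 were not matched by name. Further alternatives changed the cell filter, gate, denominator, thinning, scaling, low-count filter and added CPM. Some genes of the lists are not reported here by name. The authors' test over cells was not used, because cells are not replicates.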

Additional observations from a re-analysis of the deposited data

How the results depend on the processing

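No paired analysis was possible because each condition has 1 library. The lower share of gated cells in the MSA-2 library (log2 ratio -2.42) was -4.61 (26 of 13413 against 1 of 12584 cells) when the gate was applied after thinning each barcode to 1500 UMIs, and 0.25 over CD3 cells. The median of the receptor signaling list, 0.05, was -0.54 with equal weight per cell, 1.39 without cells with 2 or more Treg list genes, -0.55 without matrix-rich cells and -0.53 without these and the Cst3-rich cell. The cells left without 2 Treg list genes include 1 MSA-2 cell, so each value without the Treg-gene cells is a value of that cell. The median of the activation list, 0.04, was -3.46 without the Treg-gene cells and -0.56 without matrix-rich cells. The interferon-stimulated median was 1.12 without matrix-rich cells, and the interferon-gamma and MHC class I medians, 0.03 and -0.50, were 0.80 and -2.41 without the Treg-gene cells. Reversed single values were 0.045 for the glycolysis median (-0.51 over all gated cells) without matrix-rich cells, -0.36 for Ifit3 without the Treg-gene cells, and for Ccl5 -0.30 with equal weight, -0.16 without matrix-rich cells and -0.22 without these and the Cst3-rich cell. The cause was not tested. Under the other alternatives 442 values of single genes, cell shares and further lists stayed within their counting error, 22 of them with the other sign, and 70 moved beyond it, 19 with the other sign. Among these sign changes were the medians of the JAK-STAT list (0.35, and -0.27 without matrix-rich cells) and the cell cycle list (-0.06 and 0.33). The inhibitory receptor median also turned, from 0.42 to -0.53 without matrix-rich cells. The sum of that list over all gated cells had an interval that excludes 0 (0.13 to 0.93). Of the main results 61 values stayed within counting error, 10 with the other sign. A gate of 2 Cd4 UMIs left 0 MSA-2 cells and gave no ratio of gene levels. With 8 low-matrix MSA-2 cells of 39252 UMIs in all, a gene with 3 UMIs in them is at 76.4 CPM. Genes below that level in both libraries cannot be compared at this depth. Ratios of genes below it in the MSA-2 cells alone, such as Fosb, Irf1 and Ccr7, rest on fewer than 3 UMIs there. The size of those ratios is uncertain.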
